A study of Mus musculus with 57 samples.

Results

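The promoters described here carried the repressive histone mark H3K27me3 in gastrocnemius, a calf muscle, and not in brain cortex. They were chosen by the H3K27me3 calls themselves. An autosomal gene was taken when the 2001 bp around its most upstream RefSeq transcription start site (TSS), 1 kb on either side, were overlapped by an H3K27me3 peak in at least 8 of 10 gastrocnemius libraries and in at most 1 of 9 cortex libraries. Of 24963 autosomal genes with a curated RefSeq transcript on mm10, 824 (3.30%) met this rule. They comprised 685 protein-coding genes, 112 long noncoding RNAs, 26 miRNAs and 1 gene with no type given, and the protein-coding share was 83.1%, against 80.2% of all 24963 genes. For comparison, 2893 genes had H3K27me3 in at least 8 libraries of both tissues, 429 had it in cortex only (at least 8 cortex and at most 1 gastrocnemius libraries) and 14065 had no H3K27me3 peak at the promoter in any library.

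The study used chromatin immunoprecipitation and sequencing (ChIP-seq) to profile 3 histone marks in 2 tissues, brain cortex and gastrocnemius. The animals were PSAPP mice, which model Alzheimer's disease and carry mutant forms of the amyloid precursor protein and of presenilin. All were aged 13 months and were kept in single cages on a modified AIN-93 diet since the age of 6 months, so no group without the transgenes and no other age entered any comparison, and the promoters that drive the transgenes are not given in the sources used here. Each mark had 9 cortex and 10 gastrocnemius libraries, 57 in all, made from snap-frozen tissue. The deposited names tie the 9 cortexes to 9 of the 10 animals with gastrocnemius, so most animals gave both tissues, and the tissues are compared here over libraries.

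H3K27me3 is laid down by Polycomb repressive complex 2 and marks genes that are kept silent in a given cell type, among them many developmental regulators. H3K4me3 marks the start sites of active and poised genes, with CpG-rich promoters as its usual place, and H3K27ac marks active promoters and enhancers. Because acetylation and methylation compete for the same lysine, H3K27ac and H3K27me3 cannot sit on the same histone tail. A promoter with both H3K4me3 and H3K27me3 is called bivalent, a state first described in embryonic stem cells, but in bulk tissue both marks can also come from different cells. Gastrocnemius is built of multinucleated fibres with nerve endings, vessels, connective tissue and satellite cells between them, and cortex of neurons, glia and vessels. In both tissues, fewer cells that carry a mark and less mark per cell cannot be told apart.

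Shown first are 4 promoters with high H3K4me3 in cortex and no H3K4me3 peak in gastrocnemius and the promoter under the longest H3K27me3 domain. They were taken from the 599 of the 824 promoters that have an entry in the RefSeq promoter table. Each sequence is the RefSeq promoter (GRCm38.p6, the assembly of mm10) from 250 bases before to 50 bases after the TSS, 5′ to 3′ on the strand of the gene, with every CG in capitals. Ctnnd2 (catenin delta 2 of neuronal junctions) lies at chr15:30172284-30172583 on the plus strand, Gria2 (an AMPA glutamate receptor subunit) at chr3:80802786-80803085 on the minus strand, Grm7 (a metabotropic glutamate receptor) at chr6:110645262-110645561 on the plus strand, Soga3 at chr10:29143746-29144045 on the plus strand and Grik4 (a kainate glutamate receptor subunit) at chr9:42944322-42944621 on the minus strand.
Ctnnd2: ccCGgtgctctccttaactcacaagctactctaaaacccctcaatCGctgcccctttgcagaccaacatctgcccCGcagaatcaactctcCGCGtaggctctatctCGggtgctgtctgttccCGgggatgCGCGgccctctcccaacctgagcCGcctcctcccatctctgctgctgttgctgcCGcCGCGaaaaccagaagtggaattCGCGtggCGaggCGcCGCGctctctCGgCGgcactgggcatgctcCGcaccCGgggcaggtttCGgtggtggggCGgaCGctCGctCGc
Gria2: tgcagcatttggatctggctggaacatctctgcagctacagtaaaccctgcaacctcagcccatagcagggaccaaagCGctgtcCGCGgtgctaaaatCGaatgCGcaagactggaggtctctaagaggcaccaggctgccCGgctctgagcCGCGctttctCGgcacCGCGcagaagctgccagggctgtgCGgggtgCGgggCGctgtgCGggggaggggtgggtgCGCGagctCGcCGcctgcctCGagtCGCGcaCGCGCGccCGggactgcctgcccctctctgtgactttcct
Grm7: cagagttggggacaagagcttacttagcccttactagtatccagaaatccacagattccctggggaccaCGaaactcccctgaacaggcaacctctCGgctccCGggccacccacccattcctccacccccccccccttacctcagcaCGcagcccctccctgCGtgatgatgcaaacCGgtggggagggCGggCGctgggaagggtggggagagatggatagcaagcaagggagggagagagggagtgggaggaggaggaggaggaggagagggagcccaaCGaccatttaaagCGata
Soga3: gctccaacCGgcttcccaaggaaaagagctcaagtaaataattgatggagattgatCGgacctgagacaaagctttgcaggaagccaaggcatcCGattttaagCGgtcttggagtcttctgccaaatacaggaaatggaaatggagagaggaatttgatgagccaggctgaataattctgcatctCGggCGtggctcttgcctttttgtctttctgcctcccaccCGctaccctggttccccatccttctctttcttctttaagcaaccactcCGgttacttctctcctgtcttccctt
Grik4: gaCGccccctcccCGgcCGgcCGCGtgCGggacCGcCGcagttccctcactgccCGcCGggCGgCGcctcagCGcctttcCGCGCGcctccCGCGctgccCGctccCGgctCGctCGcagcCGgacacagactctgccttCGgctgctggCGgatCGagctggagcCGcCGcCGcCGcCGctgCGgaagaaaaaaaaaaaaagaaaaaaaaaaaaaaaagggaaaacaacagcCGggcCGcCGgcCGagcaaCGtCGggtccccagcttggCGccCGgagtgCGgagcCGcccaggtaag
These 300 bases held 28 CG in Ctnnd2, 26 in Gria2, 10 in Grm7, 8 in Soga3 and 42 in Grik4. The 32851 promoters of the same table had a median of 7, with a 10th percentile of 1 and a 90th percentile of 31.

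The 26 miRNA genes among the 824 promoters hold several miRNAs known from neurons or leukocytes. The mature sequences of those described further on are shown with the seed, bases 2 to 8, in capitals, as RefSeq gives them.
miR-9-5p: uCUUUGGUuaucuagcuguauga
miR-9-3p: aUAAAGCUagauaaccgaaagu
miR-132-3p: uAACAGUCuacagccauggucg
miR-212-3p: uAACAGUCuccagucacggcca
miR-153-3p: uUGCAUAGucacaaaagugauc
miR-138-5p: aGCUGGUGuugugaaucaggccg
miR-7b-5p: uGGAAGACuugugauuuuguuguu
miR-346-5p: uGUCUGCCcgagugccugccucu
miR-142a-3p: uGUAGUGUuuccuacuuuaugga
Mature sequences were found for 25 of the 26 genes and came to 41 distinct sequences with 40 distinct seeds. The seed AACAGUC was shared by miR-132-3p and miR-212-3p, whose genes are neighbours on chromosome 11.

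The depth of a library is given as the reads in all its peaks, those on chromosome X included, because the deposited peak lists hold no reads outside peaks. It ranged from 9.50 to 18.99 M in cortex and from 9.16 to 14.98 M in gastrocnemius for H3K4me3, from 3.94 to 21.2 M and from 15.7 to 27.3 M for H3K27ac, and from 4.52 to 7.32 M and from 2.99 to 18.2 M for H3K27me3. Reads at a promoter are given as RPM, which is the number of reads in peaks lying up to 1 kb from the TSS, per M reads in autosomal peaks, and a value of 0 means that no peak was called, not that no read was there. RPM were not scaled further. With limma on log2(RPM + 1), without TMM factors, the median log2 difference, cortex minus gastrocnemius, over all promoters tested was 0.35 for H3K4me3 and 0.29 for H3K27ac, against 0.04 for both in the edgeR fit with TMM factors. As a check of the tissue labels, all 9 muscle markers examined, from Acta1 and Ckm to Myod1, had an H3K4me3 peak in 10 of 10 gastrocnemius libraries. In cortex, Mylpf and Pygm had it in 9 of 9 libraries, Myod1 in 6, Des in 5, Acta1 in 1 and Ckm, Tnnt3, Myh4 and Ttn in 0. Of 7 neuronal markers, Rbfox3, Snap25, Gad1 and Camk2a had none in gastrocnemius, whereas Syt1, Slc17a7 and Tubb3 had H3K4me3 in all 10, and all 7 had it in at least 7 of 9 cortex libraries. Of the oligodendrocyte and astrocyte markers, Mog, Mobp, Cnp, Gfap and Slc1a2 had H3K4me3 and H3K27ac in 9 of 9 cortexes. Only Aqp4 had neither mark in cortex at its most upstream TSS. In gastrocnemius, Cnp and Slc1a2 had H3K4me3 in 10 of 10 libraries and the others in 0. The microglia markers Cx3cr1, Csf1r and P2ry12 had H3K4me3 in 9, 9 and 8 of 9 cortexes and in 0, 4 and 0 of 10 gastrocnemius libraries. The leukocyte gene Ptprc had H3K4me3 in 7 of 9 cortex libraries and in 0 of 10 gastrocnemius libraries, whereas Cd68, another leukocyte gene, had it in 9 of 9 and 9 of 10. The collagen gene Col3a1 had it in 0 of 9 and 10 of 10, while Col1a1, Pdgfra, Pecam1 and Cdh5, genes of connective tissue cells and vessels, had it in every library of both tissues.

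The H3K27me3 values that chose the promoters are a description only. A peak was called in 10 of 10 gastrocnemius libraries at 431 promoters, in 9 at 227 and in 8 at 166, and in 0 of 9 cortex libraries at 654 and in 1 at 170. At 328 promoters, the calls were 10 of 10 and 0 of 9. Just outside the limits lay 175 promoters with 7 gastrocnemius libraries and 151 with 2 cortex libraries. The median H3K27me3 level in gastrocnemius was 5.93 RPM at the promoters called in 8 libraries and 4.70 RPM at those called in 7, against 8.02 RPM at those called in all 10. Per library, between 85.4% and 97.8% of the 824 promoters had a peak in gastrocnemius (median 94.7%), and between 1.09% and 4.005% in cortex (median 2.43%).

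**Figure D1:**
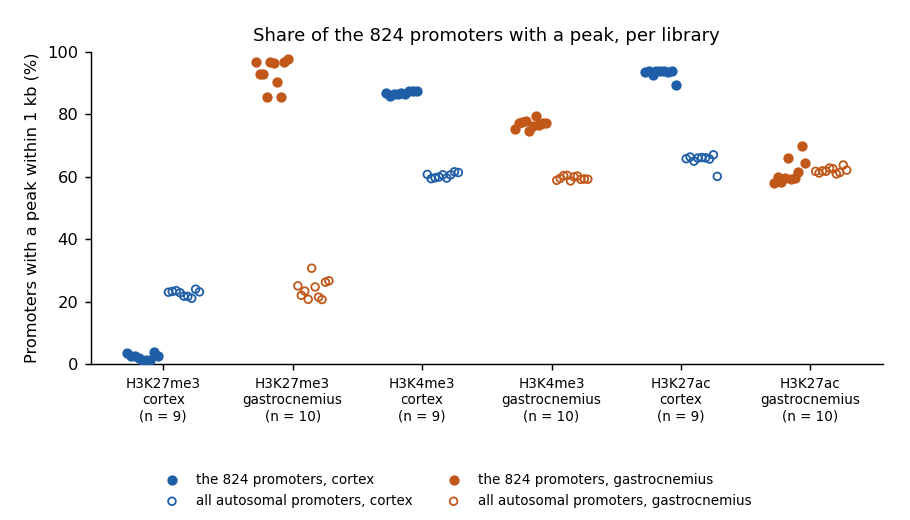
The share of promoters with a peak within 1 kb of the TSS (%) in each library, by mark and tissue, for the 824 promoters (filled points) and for all 24963 autosomal promoters (open points). H3K27me3 chose the 824 promoters, and for H3K27ac the filled points lie between 89.3% and 94.0% in cortex and between 58.0% and 69.9% in gastrocnemius.

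The H3K27me3 peaks over these promoters were broad. Their median length in gastrocnemius was 7100 bp, with a 10th percentile of 4200 bp and a 90th percentile of 13870 bp, against a median of 10000 bp at the promoters marked in both tissues. The median level was 7.21 RPM, against 8.40 RPM at the promoters marked in both tissues. The longest peaks, by their median over gastrocnemius libraries, lay over Grik4 (37600 bp), the long noncoding RNA Gm30529 and Rhpn1 (33800 bp each), and Mir9-2 and Gm51268 (32600 bp). The last pair lies on opposite strands of the same bases and cannot be told apart. In the median gastrocnemius library, 82.7% of the 824 TSSs lay under an H3K27me3 peak, and 42.5% of the positions 5 kb upstream and 48.1% of those 5 kb downstream. In the median cortex library, these shares were 1.34%, 7.77% and 5.58%.

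**Figure D2:**
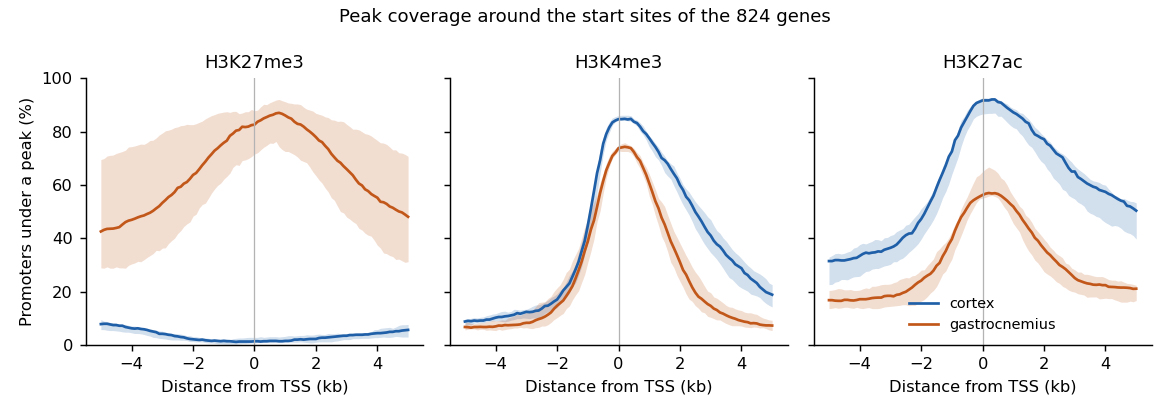
The share of the 824 promoters under a peak (%) by distance from the TSS (kb, negative upstream in the direction of the gene) for H3K27me3, H3K4me3 and H3K27ac; lines are medians over libraries and bands run from the lowest to the highest library. At the TSS, the cortex and gastrocnemius medians are 84.7% and 73.9% for H3K4me3 and 91.8% and 56.3% for H3K27ac.

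The promoters were spread over the genome. Joining those within 10 kb gave 725 separate loci, 635 of them with a single gene, and the largest joined locus held 6. At 148 promoters, the 2001 bp windows overlapped that of another of the 824, so their values are not independent. By chromosome, the share of genes chosen ran from 2.22% on chromosome 17 to 4.57% on chromosome 12, and chromosome 2 held the most genes, 77.

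H3K4me3 was not used to choose the promoters and was present at most of them in both tissues, with more reads in cortex. Per library, between 85.8% and 87.6% of the 824 promoters had an H3K4me3 peak in cortex (median 86.9%) and between 74.8% and 79.4% in gastrocnemius (median 77.3%), whereas over all promoters the median shares were 60.6% and 59.4%. The mean level over the 824 promoters lay between 27.3 and 31.5 RPM in the cortex libraries and between 10.6 and 14.0 RPM in the gastrocnemius libraries, with no overlap. Over all promoters, the medians of the library means were 22.4 and 17.7 RPM, so that a part of any RPM difference was shared by promoters at large. Where a peak was called, its median length was 4200 bp in cortex and 2900 bp in gastrocnemius, and at 2.5 kb downstream of the TSS 49.9% of the promoters lay under a peak in cortex and 19.6% in gastrocnemius. At 2.5 kb upstream, these shares were 13.6% and 10.01%.

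An H3K4me3 peak was called in all 19 libraries at 585 of the 824 promoters (71.0%, against 53.8% of all promoters) and in none at 85 (10.3%, against 33.1% of all). By Fisher's exact test on the calls (two-sided, false discovery rate (FDR) below 0.1 over all 24963 promoters), 73 of the 824 (8.86%) had a peak more often in cortex, where the test called 3.35% of all promoters. Only 2, Tigd4 and Gm42064, had it more often in gastrocnemius, where it called 2.28% of all promoters. Gm42064 passed narrowly (Fisher's exact test, adjusted p = 0.0973) and was lost at an FDR of 0.05, and 1 call was left with equally many top-scoring peaks or with peaks over at least 50% of the window. Leaving out a single library also left 1 call, except for cortex replicates 4 and 5 and gastrocnemius replicate 5, which left 2. At 55 promoters (6.67%, against 2.54% of all), H3K4me3 was called in at least 8 cortexes and in at most 1 gastrocnemius library. More promoters differed in the number of reads, which also compares promoters called in both tissues. Of the 824, 723 had a mean of at least 10 reads over the libraries and could be tested with edgeR's quasi-likelihood test after TMM normalisation, and the 101 left out include the 85 with no peak. Reads were higher in cortex at 590 of these 723 (81.6%, against 31.9% of the 15931 promoters tested) and higher in gastrocnemius at 35 (4.84%, against 26.9% of those tested), and 98 did not pass the threshold. With limma on log2(RPM + 1), without TMM factors, these counts were 659 and 15, and 62.3% and 15.8% of all promoters tested were called. The median log2 difference, cortex minus gastrocnemius, was 0.99, against 0.04 over all promoters tested. Every cortex library lay above every gastrocnemius library at 499 of the 723 (69.0%, against 18.1% of those tested), and the reverse held at 2, Tigd4 and Mgp (6.74% of those tested).

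Since 67 of the promoters tested had a mean below 10 reads in gastrocnemius and 7 had it in cortex, some passed the filter through the higher tissue. The 499 without overlap include such promoters and were not counted apart from them. The 585 promoters with H3K4me3 in every library did not pass the filter through 1 tissue alone. Among them 467 were higher in cortex, 27 were higher in gastrocnemius and 91 did not pass, with a median log2 difference of 0.77, which is 1.71-fold. Of the 13419 promoters with H3K4me3 in every library, 29.3% were higher in cortex and 24.4% in gastrocnemius, with a median of 0.04. The next values cover every tested promoter of a set, with or without a peak in every library. They can include promoters that passed the filter through 1 tissue alone, so they are not comparable with the 0.77 above. At the promoters with H3K27me3 in both tissues, H3K4me3 reads were higher in cortex at 831 and in gastrocnemius at 618 of 1823 tested. Their median log2 difference was 0.22. At the promoters with H3K27me3 in cortex only, the median was -1.30 over 282 tested. Counted in the same way, it was 0.99 over 723 tested at the promoters with H3K27me3 in gastrocnemius only.

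H3K27ac, which was not used to choose the promoters either, was present at nearly all of them in cortex and at fewer in gastrocnemius. Per library, between 89.3% and 94.0% of the 824 promoters had an H3K27ac peak in cortex (median 93.8%) and between 58.0% and 69.9% in gastrocnemius (median 59.8%), whereas over all promoters the median shares were 66.01% and 61.8%. The mean level over the 824 promoters lay between 7.49 and 10.6 RPM in cortex and between 2.41 and 3.85 RPM in gastrocnemius, against medians of 6.09 and 4.84 RPM over all promoters. Peaks had a median length of 6800 bp in cortex and 3850 bp in gastrocnemius.

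A peak of H3K27ac was called in all 19 libraries at 409 of the 824 promoters (49.6%, against 51.9% of all promoters) and in none at 31 (3.76%, against 25.6% of all). By Fisher's exact test, 241 (29.2%) had H3K27ac more often in cortex, where the test called 6.25% of all promoters, and only Tigd4 had it more often in gastrocnemius, where it called 2.77%. The call at Tigd4 was lost under 5 other settings, among them a window of 2.5 kb, and when gastrocnemius replicate 2, 3, 4, 6, 7 or 10 was left out. At 184 promoters (22.3%, against 4.59% of all), H3K27ac was called in at least 8 cortexes and in at most 1 gastrocnemius library. Reads could be tested at 775 promoters and were higher in cortex at 665 (85.8%, against 31.2% of the 17498 promoters tested), higher in gastrocnemius at 22 (2.84%, against 24.4% of those tested) and not past the threshold at 88 (edgeR, FDR below 0.1), whereas limma on log2(RPM + 1) gave 724 and 5 (53.3% and 14.2% of all). The median log2 difference was 1.23, against 0.04 over all promoters tested, and with limma on log2(RPM + 5) the medians were 0.75 and 0.20. Every cortex library lay above every gastrocnemius library at 541 (69.8%, against 14.7% of those tested), and the reverse held at 0 (4.54% of those tested). Here 215 of the promoters tested had a mean below 10 reads in gastrocnemius and 1 in cortex. The 665 and the 541 therefore include promoters that passed the filter through cortex alone. Promoters without overlap were not counted among those with a peak in every library. Among the 409 with H3K27ac in every library, 323 were higher in cortex, 21 were higher in gastrocnemius and 65 did not pass, with a median of 0.60 (1.51-fold), whereas of the 12950 tested promoters with H3K27ac in every library 26.6% were higher in cortex and 23.3% in gastrocnemius, with a median of 0.03. Reads of both marks were higher in cortex at 548 of the 718 promoters tested for both (76.3%, against 19.2% of all promoters tested for both), and both were higher in gastrocnemius at 9 (1.25%, against 14.98% of all). The 718 include promoters that passed the filter through cortex alone, and this joint count was not made at promoters with both marks in every library.

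**Figure D3:**
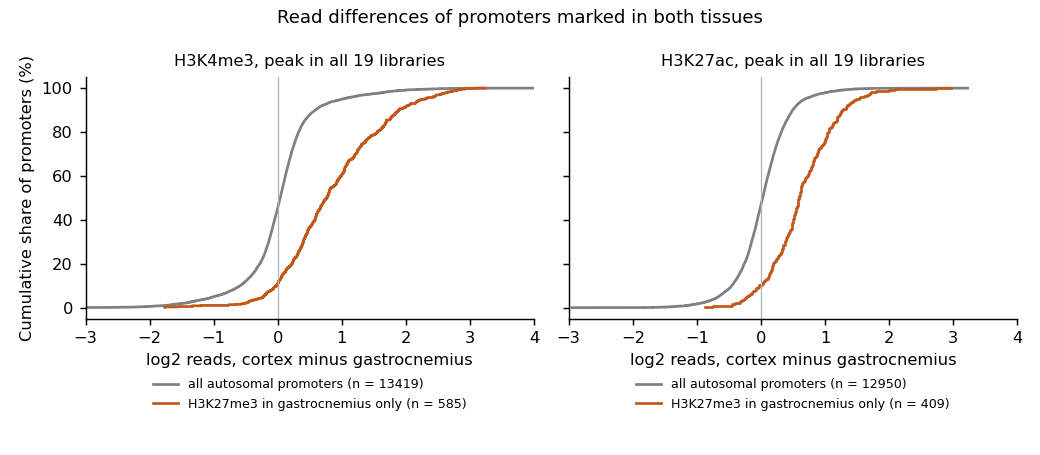
The cumulative share of promoters (%) by the log2 difference in reads, cortex minus gastrocnemius, for promoters with a peak in all 19 libraries, with H3K4me3 on the left (585 promoters with H3K27me3 in gastrocnemius only and 13419 promoters in all) and H3K27ac on the right (409 and 12950). The medians are 0.77 and 0.04 for H3K4me3 and 0.60 and 0.03 for H3K27ac.

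The deposited names of 2 of the 9 cortex and 4 of the 10 gastrocnemius libraries of each mark carry an S number that is not explained. In gastrocnemius, those with the number had H3K27me3 at 96.4% to 97.8% and H3K27ac at 59.2% to 69.9% of the 824 promoters, and those without it at 85.4% to 96.8% and 58.0% to 61.4%. Without the numbered libraries, H3K4me3 reads were higher in cortex at 573 and in gastrocnemius at 36 promoters (79.9% and 5.02% of those tested, against 29.5% and 26.8% of all promoters tested), and H3K27ac reads at 654 and 19 (84.2% and 2.45%, against 29.7% and 21.8% of all; edgeR). Among the numbered libraries alone, these counts were 439 and 15 for H3K4me3 (60.6% and 2.07%, against 16.2% and 12.3% of all) and 362 and 5 for H3K27ac (47.8% and 0.661%, against 11.1% and 9.24% of all). With 2 libraries against 4, calls could not reach the threshold of Fisher's exact test.

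The promoters fell into groups by the active marks they had in gastrocnemius, the tissue in which they carried H3K27me3. The commonest group, 454 promoters (55.1%, against 54.2% of all promoters), had both H3K4me3 and H3K27ac in at least 8 gastrocnemius libraries. Another 76 had H3K4me3 in at least 8 gastrocnemius libraries and H3K27ac in at most 1, and 75 of these had H3K27ac in at least 8 cortexes. The pattern of H3K4me3 in at least 8 libraries of both tissues with H3K27ac in cortex only thus took up 9.10% of the 824 promoters. It was found at 1.39% of all promoters, at 6.26% of those with H3K27me3 in both tissues and at 0.0284% of those without H3K27me3. A further 85 promoters had H3K4me3 in at least 8 gastrocnemius libraries with H3K27ac in between. At 55, H3K4me3 was present in at least 8 cortexes and at most 1 gastrocnemius library (6.67%, against 2.54% of all promoters). At 91, it was present in at most 1 library of each tissue (11.0%, against 34.4% of all), and 63 had other patterns. For the groups of 85 and 63, the share of all promoters was not counted. The median H3K27me3 level was 7.25, 7.82, 7.85, 7.34, 6.22 and 7.25 RPM in these 6 groups.

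CpG-rich sequence was common at the promoters with H3K4me3 in every library and rare at those with H3K4me3 in cortex only or in no library. Within 1 kb of the TSS, the median GC content of the 824 promoters was 55.1% (51.1% over all promoters), and they had 4.20 CpG per 100 bp (2.90 over all). By the usual limits of a CpG island (observed over expected above 0.6 and GC above 50%), 40.2% were CpG rich, against 29.0% of all promoters and 27.5% of those with H3K27me3 in both tissues. The share was 52.3% at the promoters with H3K4me3 in every library, 9.09% at the 55 with H3K4me3 in cortex only and 0% at the 85 with no H3K4me3. All 91 promoters with H3K4me3 in at most 1 library of each tissue were outside the gene lists used further on, and 50.5% of them belonged to protein-coding genes. The letters TTCAGCACC, which belong to the element bound by the repressor REST, were found on either strand within 1 kb of the TSS at 43 of the 824 promoters (5.22%, against 2.99% of all promoters), and at 7 of the 55 with H3K4me3 in cortex only (12.7%). TATAAA was present at 47.9% (59.2% of all promoters) and the E-box letters CAGCTG at 65.5% (62.9% of all).

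Genes of several neuronal functions were among the 824 promoters. Of 13 lists of genes examined, the 9 on neuronal and second messenger functions, counted jointly, had 81 members among 554 genes measured (14.6%, against 3.30% of all autosomal genes). The share was 25% for glutamate, GABA and glycine receptors (11 of 44), 19.5% for sodium, calcium and HCN channels (8 of 41), 18.8% for calcium sensors, kinases and second messenger genes (12 of 64), 18.4% for synaptic vesicle, release and scaffold genes (14 of 76), 17.2% for axon guidance and neuronal adhesion (16 of 93) and 16.1% for potassium channels (10 of 62). It was lower for neuropeptides and secreted neuronal factors (8.70%, 4 of 46), oligodendrocyte and astrocyte genes (6.67%, 3 of 45), Wnt, FGF, BMP, Hedgehog and Notch pathway genes (5.38%, 5 of 93), monoamine, acetylcholine and peptide receptors (4.82%, 4 of 83) and neuronal transcription factors (4.17%, 2 of 48). No gene of the microglia and leukocyte list (0 of 30) or of the sarcomere and muscle list (0 of 40) was among the 824. At the 3.30% of all autosomal genes, lists this short would hold few or none, so these zeros are near that share. Mir142, a gene of blood cells outside the list, was among the 824. Of the 40 sarcomere and muscle genes, 10 had H3K27me3 in cortex only, against 1.72% of all autosomal genes. H3K27me3 in both tissues, which 11.6% of all autosomal genes had, was found at 15 of the 44 glutamate, GABA and glycine receptors, 14 of the 41 sodium, calcium and HCN channels, 16 of the 64 second messenger genes, 24 of the 76 synaptic genes, 21 of the 93 axon guidance genes and 27 of the 62 potassium channels. The counts were 32 of 46 for neuropeptides, 53 of 83 for monoamine, acetylcholine and peptide receptors, 22 of 45 for oligodendrocyte and astrocyte genes, 56 of 93 for developmental pathway genes and 36 of 48 for neuronal transcription factors. Reads are compared in each list at the genes with a peak of that mark in all 19 libraries, which did not pass the filter on reads through 1 tissue alone. Over all promoters with the mark in every library, 29.3% (H3K4me3) and 26.6% (H3K27ac) were higher in cortex, and among the 824 this held at 467 of 585 and 323 of 409.

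**Figure D4:**
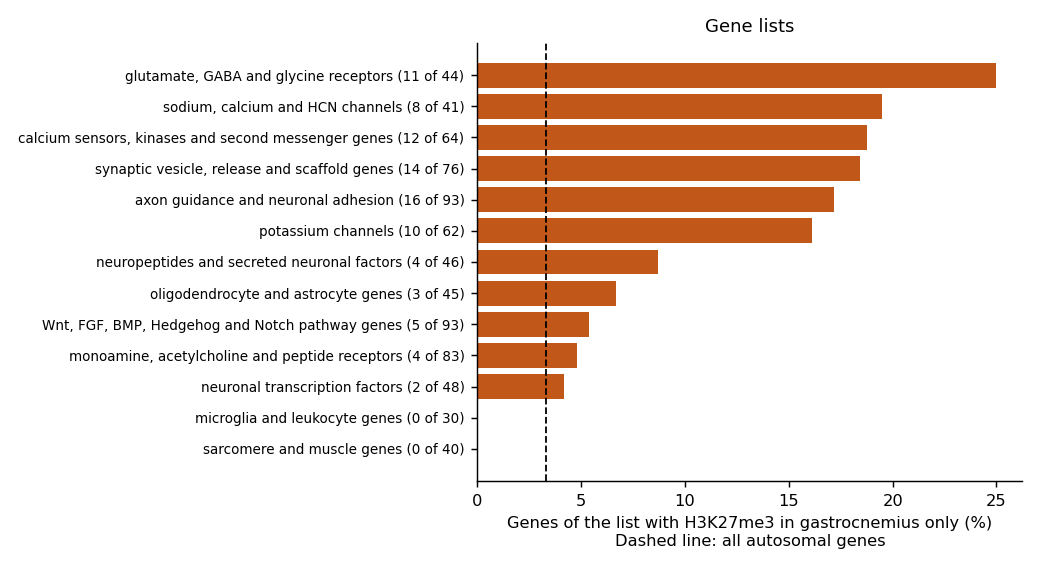
The share of each gene list (%) whose promoters had H3K27me3 in gastrocnemius only, with the counts of genes in brackets; the dashed line marks the 3.30% of all autosomal genes. The bars run from 25% for glutamate, GABA and glycine receptors to 0% for microglia and leukocyte genes and for sarcomere and muscle genes.

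The 11 receptors for glutamate, GABA and glycine, which carry fast and modulatory transmission at synapses, had H3K4me3 in all 19 libraries at 5, and each of these had more reads in cortex (29.3% of all such promoters). H3K4me3 was called more often in cortex at 4 of them, Gria2, Grm3, Grm7 and Grin2b, where Fisher's exact test called 3.35% of all promoters and 8.86% of the 824. At Gria2, whose subunit sets the calcium permeability of AMPA receptors, H3K4me3 ranged from 46.0 to 59.7 RPM in cortex (median 53.1) and was called in 0 of 10 gastrocnemius libraries (Fisher's exact test, adjusted p = 0.00034). Its H3K27ac ranged from 12.3 to 17.9 RPM in cortex (median 15.6) and was likewise called in 0 of 10 gastrocnemius libraries (Fisher's exact test, adjusted p = 0.000252), while H3K27me3 ranged from 4.33 to 12.8 RPM in gastrocnemius (median 8.76). In every cortex library, Gria2 thus carried both active marks and no H3K27me3 peak, and in every gastrocnemius library an H3K27me3 peak alone. At Grik2 (a kainate receptor subunit), H3K4me3 ranged from 25.9 to 33.6 RPM (median 30.0) in cortex and from 2.55 to 5.72 RPM (median 4.23) in gastrocnemius, where H3K27ac was called in 0 of 10 libraries. Grik2 was therefore called for H3K4me3 in every library of both tissues, at levels that did not overlap. Grik4, under the longest H3K27me3 peak and with the most CG of the promoters printed above, kept both active marks in all 19 libraries. Its H3K4me3 ranged from 34.3 to 47.3 RPM in cortex and from 10.2 to 23.1 RPM in gastrocnemius (log2 difference 0.92 ± 0.10, SE, edgeR, adjusted p = 1.19e-07), and its H3K27ac from 5.90 to 13.0 RPM and from 2.44 to 4.75 RPM (0.82 ± 0.13, SE, adjusted p = 2.26e-05). Grik5, chosen for mention after its values were seen, was the other receptor with H3K27ac in all 19 libraries, and its log2 difference of 0.14 did not pass the threshold (edgeR, adjusted p = 0.173).

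Of the potassium channel genes, 4 of the 10 had H3K4me3 in all 19 libraries, with more reads in cortex at each (29.3% of all such promoters; median log2 difference 1.47), and 1 had H3K27ac in all 19. Kcna2, a delayed rectifier subunit of axons, held between 34.4 and 45.9 RPM of H3K4me3 in cortex (median 38.5) and between 8.31 and 12.01 RPM in gastrocnemius (median 9.43), a log2 difference of 1.70 ± 0.08 (SE, edgeR, adjusted p = 1.68e-13). Its H3K27ac was called in all 19 libraries with a log2 difference of 1.04 ± 0.09 (SE, adjusted p = 1.07e-08), and its H3K27me3 ranged from 4.95 to 13.7 RPM in gastrocnemius. Kcna3, its neighbour on chromosome 3 and a subunit of the same family, held between 28.1 and 37.6 RPM of H3K4me3 in cortex and between 8.77 and 13.6 RPM in gastrocnemius (log2 difference 1.38 ± 0.07, SE), with H3K27ac in 6 of 10 gastrocnemius libraries. Kcnip3, a calcium-binding partner of Kv4 channels, and Kcnmb4, an accessory subunit of the BK channel, had H3K27ac in 7 and 2 of 10 gastrocnemius libraries and H3K4me3 in 9 and 10. In each of these 4 genes, the H3K4me3 levels of the tissues did not overlap.

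Of the 8 sodium, calcium and HCN channel genes, 5 had H3K4me3 and 3 had H3K27ac in all 19 libraries, with more reads in cortex at each of these (29.3% and 26.6% of all such promoters). Hcn2 and Hcn3 encode pacemaker channels, and Cacng8 an auxiliary subunit of AMPA receptors that belongs to the calcium channel gamma family. At Hcn2, H3K4me3 ranged from 26.2 to 40.5 RPM in cortex (median 31.7) and from 2.71 to 6.63 RPM in gastrocnemius (median 5.35), a log2 difference of 2.32 ± 0.15 (SE, edgeR, adjusted p = 1.54e-11). Its H3K27ac ranged from 0 to 12.2 RPM in gastrocnemius with a peak in 6 of 10 libraries, so that the highest gastrocnemius library reached the level of cortex (8.31 to 12.1 RPM), and the difference passed narrowly (edgeR, adjusted p = 0.0756). It kept its direction and lost the call in 9 of 31 alternatives, with an adjusted p of up to 0.55. Hcn3 and Cacnb4 (a beta subunit of voltage-gated calcium channels) kept both marks in all 19 libraries, with log2 differences of 1.10 ± 0.09 and 1.20 ± 0.10 for H3K4me3 and of 0.75 ± 0.14 and 1.34 ± 0.12 for H3K27ac (SE). Cacng8 had H3K4me3 between 9.32 and 22.4 RPM and H3K27ac between 5.34 and 8.96 RPM in cortex, and neither mark in any gastrocnemius library.

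Among the 14 genes of synaptic vesicles, release and scaffolds, H3K4me3 was called in at least 8 gastrocnemius libraries at all 14 (58.1% of all promoters and 74.6% of the 824), and its reads, with a peak in all 19 libraries, were higher in cortex at 12 (29.3% of all such promoters; median log2 difference 1.05). Of the 8 with H3K27ac in all 19 libraries, 5 had more reads in cortex (26.6% of all such promoters) and 1 had fewer, Cplx2, a complexin (log2 difference -0.33, adjusted p = 0.00564). Rims2, a scaffold of the presynaptic active zone, had the highest H3K4me3 of the list members named here, from 62.5 to 79.6 RPM in cortex and from 19.1 to 32.3 RPM in gastrocnemius (log2 difference 1.23 ± 0.09, SE, edgeR, adjusted p = 9.61e-11). H3K27ac was called at Rims2 and at Syn2, a synapsin of synaptic vesicles, in 9 of 9 cortexes and in 3 of 10 gastrocnemius each. Unc13a, which primes vesicles for release, and Dlgap4, a postsynaptic scaffold protein, kept both marks in all 19 libraries. Their H3K27ac ranged from 6.73 to 12.7 and from 7.32 to 11.5 RPM in cortex and from 3.16 to 5.98 and from 2.29 to 3.54 RPM in gastrocnemius, without overlap in either gene. Every cortex library was likewise higher at 14.7% of all promoters tested for H3K27ac and 69.8% of the 824 that were tested.

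For axon guidance and neuronal adhesion, 14 of the 16 genes had H3K4me3 in all 19 libraries, and 12 of these had more reads in cortex (29.3% of all such promoters), with a median log2 difference of 1.27. Of the 4 with H3K27ac in all 19 libraries, 2 had more reads in cortex (26.6% of all such promoters) and 1, Efna2, an ephrin ligand, had fewer (log2 difference -0.19, adjusted p = 0.0194). Sema6d, a transmembrane semaphorin, held between 37.4 and 48.5 RPM of H3K4me3 in cortex and between 4.70 and 8.39 RPM in gastrocnemius (log2 difference 2.53 ± 0.10, SE, edgeR, adjusted p = 1.92e-14), with H3K27ac in 1 of 10 gastrocnemius libraries. Unc5c, a netrin receptor, showed the same kind of pattern, with H3K4me3 in all 19 libraries and H3K27ac in 9 of 9 cortexes and 1 of 10 gastrocnemius. Ntn3, which belongs to the netrin ligands, differed from these, since its H3K4me3 ranged from 23.5 to 29.9 RPM in cortex and from 13.8 to 26.8 RPM in gastrocnemius with overlap (log2 difference 0.13 ± 0.10, SE, adjusted p = 0.309), and only its H3K27ac was higher in cortex (0.68 ± 0.05, SE, adjusted p = 1.08e-09). Ephb6, an ephrin receptor without kinase activity, had H3K4me3 in all 19 libraries and H3K27ac in 18. The guidance receptor gene Dcc and the adhesion gene Lsamp, named because they lacked H3K4me3 in gastrocnemius, had it in 9 of 9 cortexes and 0 of 10 gastrocnemius.

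Of the 12 genes of calcium sensing, kinases and second messengers, 9 had H3K4me3 in all 19 libraries and 8 of these had more reads in cortex (29.3% of all such promoters; median log2 difference 1.10). H3K27ac was called in all 19 libraries at 4, each with more reads in cortex (26.6% of all such promoters). Dgki, a diacylglycerol kinase, had among the highest H3K27me3 levels of the promoters with H3K4me3 in every gastrocnemius library, from 5.40 to 15.7 RPM (median 11.1). Its H3K4me3 ranged from 24.4 to 43.2 RPM in cortex and from 6.25 to 11.6 RPM in gastrocnemius (log2 difference 1.70 ± 0.12, SE, edgeR, adjusted p = 3.45e-11), with H3K27ac in 1 of 10 gastrocnemius libraries. Vsnl1, a neuronal calcium sensor, held between 20.6 and 30.4 RPM of H3K4me3 in cortex and between 3.18 and 6.42 RPM in gastrocnemius, with H3K27ac in 9 of 9 cortexes and 0 of 10 gastrocnemius. Rasal1, a GTPase-activating protein for Ras, had H3K4me3 in 8 of 10 gastrocnemius libraries and Prkcb, a protein kinase C, in 4, and both had it in every cortex.

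The 4 neuropeptide and secretory genes differed in the marks that they kept in gastrocnemius. Chgb and Scg3, granins of dense-core vesicles, had H3K4me3 in 1 and 0 of 10 gastrocnemius libraries and from 19.8 to 29.8 and from 20.3 to 34.9 RPM in cortex. Pcsk2, which processes prohormones, kept H3K4me3 in all gastrocnemius libraries (5.19 to 8.12 RPM, against 37.6 to 52.5 RPM in cortex; log2 difference 2.43 ± 0.09, SE, edgeR, adjusted p = 6.63e-15) and had H3K27ac in none. Nrg2, a neuregulin, kept H3K4me3 in all 19 libraries and H3K27ac in 6 of 10 gastrocnemius.

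The receptors for adenosine, acetylcholine and nociceptin numbered 4. At Adora1, the adenosine A1 receptor, H3K4me3 ranged from 38.3 to 51.3 RPM in cortex (median 46.2) and from 2.06 to 6.54 RPM in gastrocnemius (median 3.79), a log2 difference of 3.10 ± 0.17 (SE, edgeR, adjusted p = 1.72e-12). H3K27ac was called at Adora1 in all 19 libraries and differed by 1.72 ± 0.29 (SE, adjusted p = 5.14e-05). Chrm1 (a muscarinic receptor) and Oprl1 (the nociceptin receptor) had H3K4me3 in 4 and 0 of 10 gastrocnemius libraries, and Chrna7 (a neuronal nicotinic receptor subunit) in 10. H3K27ac at these 3 promoters was called in 1, 0 and 5 gastrocnemius libraries and in every cortex.

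Of the neuronal transcription factors, 2 had H3K27me3 in gastrocnemius only, and Pou3f3, a regulator of forebrain development, is described here. Pou3f3 held between 25.3 and 34.3 RPM of H3K4me3 in cortex (median 31.2) and between 5.62 and 9.21 RPM in gastrocnemius (median 7.36), a log2 difference of 1.70 ± 0.10 (SE, edgeR, adjusted p = 4.09e-12). Its H3K27ac was called in 9 of 9 cortexes and in 0 of 10 gastrocnemius, while its H3K27me3 was called in 10 of 10 gastrocnemius and in 1 cortex.

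The glial genes were Sox8, Fabp7 and Opalin. Sox8, a transcription factor of glia and other lineages, kept both marks in all 19 libraries, with H3K4me3 between 34.8 and 45.6 RPM in cortex and between 16.4 and 26.4 RPM in gastrocnemius (log2 difference 0.67 ± 0.07, SE, edgeR, adjusted p = 5.69e-08). Fabp7, a fatty acid-binding protein of astrocytes and radial glia, had both marks in every cortex and in no gastrocnemius library, and its H3K4me3 in cortex was low, between 5.04 and 7.73 RPM. Opalin, an oligodendrocyte membrane protein, had H3K4me3 in 7 and H3K27ac in 6 of 9 cortexes and neither mark in gastrocnemius. The developmental pathway genes were Ptch1, Fzd3, Fgf12, Fgf14 and Hey1, a target of Notch signalling. Ptch1, the Hedgehog receptor, held between 40.6 and 64.4 RPM of H3K4me3 in cortex and between 18.7 and 52.1 RPM in gastrocnemius, with overlap through 1 gastrocnemius library, replicate 6 (log2 difference 0.71 ± 0.19, SE, edgeR, adjusted p = 0.00323). This difference kept its direction and lost the call in 1 of 31 alternatives. Fzd3, a Frizzled receptor needed for axon growth, kept both marks in all 19 libraries, whereas Fgf12 and Fgf14, intracellular partners of sodium channels, had H3K4me3 in 3 and 0 of 10 gastrocnemius libraries and H3K27ac in 0.

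**Figure D5:**
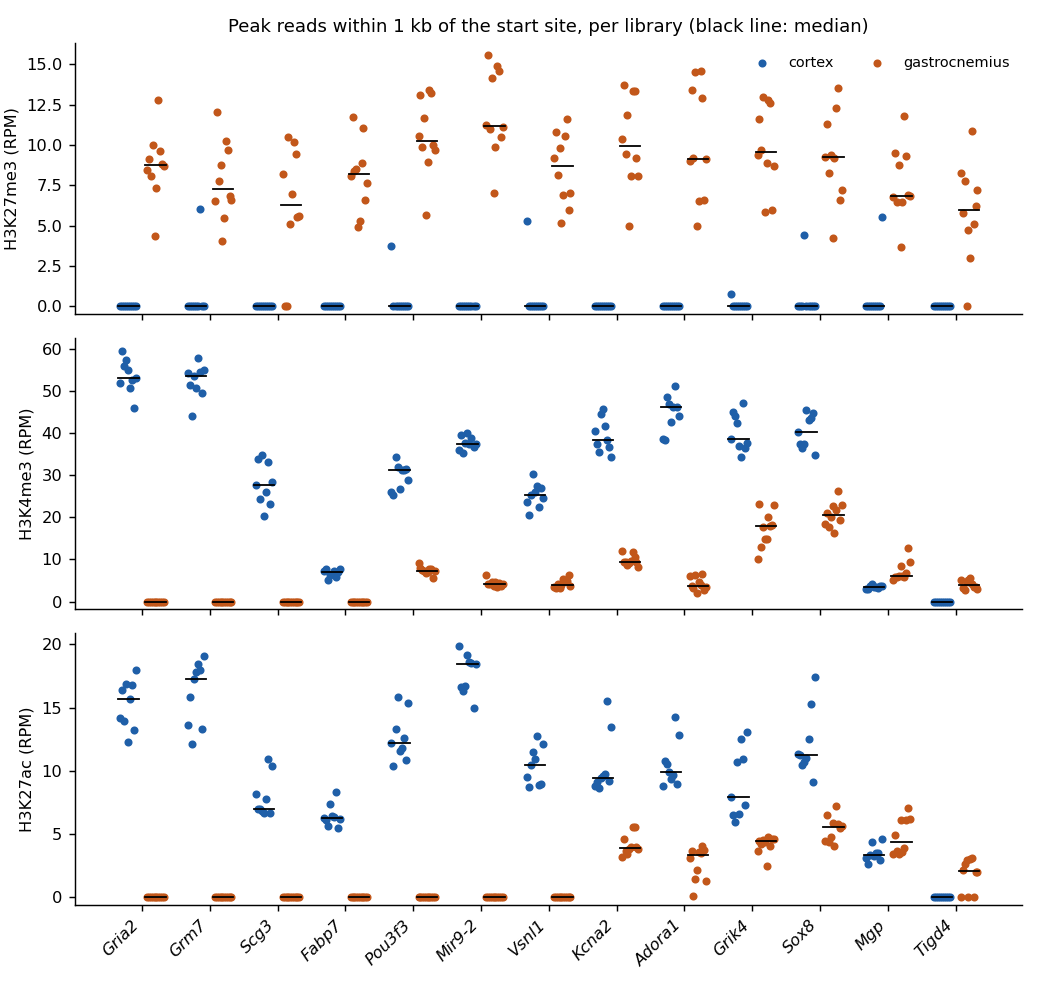
Promoter reads (RPM) in each library for 13 of the named genes, with H3K27me3, H3K4me3 and H3K27ac from top to bottom; blue points are 9 cortex and orange points 10 gastrocnemius libraries, black lines are medians and 0 stands for no called peak. Gria2 holds between 46.0 and 59.7 RPM of H3K4me3 in cortex and has no H3K4me3 peak in gastrocnemius, whereas Mgp and Tigd4 are higher in gastrocnemius.

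First in the order of the fitted H3K4me3 differences toward cortex, beside Gria2 and Fgf14, came Ctnnd2, Grm7, Soga3, Csmd3 and Ifitm7 and Bmerb1, whose windows overlap, so their values are not independent. All 8 had a gastrocnemius median of 0 RPM and passed the filter on reads through cortex, so neither the size of their differences nor their order is a measurement. At Ctnnd2, H3K4me3 ranged from 48.6 to 59.6 RPM and H3K27ac from 12.2 to 19.3 RPM in cortex, and neither was called in gastrocnemius. Grm7 and Soga3 held medians of 53.7 and 49.05 RPM of H3K4me3 in cortex and also had neither mark in gastrocnemius. The 8 promoters had H3K27me3 in 8 to 10 gastrocnemius libraries, with medians from 4.81 RPM (Fgf14) to 9.14 RPM (Soga3). First in the order of the fitted H3K27ac differences, with the same limit, were Mir9-2 with Gm51268, Snap91 (a clathrin assembly protein of synapses) and Slc4a10 (a neuronal bicarbonate transporter), all without an H3K27ac peak in gastrocnemius. Snap91 kept H3K4me3 in all gastrocnemius libraries, between 4.28 and 11.4 RPM, against 50.4 to 63.2 RPM in cortex (log2 difference 2.36 ± 0.10, SE, edgeR, adjusted p = 5.26e-14). Kif1a, a kinesin that carries synaptic vesicle precursors, had one of the highest H3K27me3 levels (median 11.2 RPM) together with H3K4me3 between 4.44 and 10.9 RPM in gastrocnemius and between 40.9 and 73.5 RPM in cortex.

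The promoters that went the other way were few. Tigd4, a gene derived from a transposase, had H3K4me3 in 10 of 10 gastrocnemius libraries, between 2.64 and 5.52 RPM, and in 0 of 9 cortexes (Fisher's exact test, adjusted p = 0.00034), with H3K27ac in 7 of 10 gastrocnemius and 0 of 9 cortexes, a call that other settings lost (described above), and H3K27me3 in 9 of 10 gastrocnemius. At Mgp, which encodes matrix Gla protein, an inhibitor of calcification made by vascular and connective tissue cells, H3K4me3 ranged from 2.93 to 4.28 RPM in cortex (median 3.52) and from 5.003 to 12.7 RPM in gastrocnemius (median 6.14), a log2 difference of -1.33 ± 0.18 (SE, edgeR, adjusted p = 1.76e-06). Its H3K27ac overlapped between the tissues (-0.75 ± 0.14, SE, adjusted p = 0.000218). Gm42064 had H3K4me3 in 9 of 10 gastrocnemius and 2 of 9 cortexes, whereas its H3K27ac was called in 3 and 8.

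The 26 miRNA genes were counted after their values had been seen, and their RefSeq start is that of the hairpin, which need not be the start of the host transcript. H3K27ac was more frequent in cortex at 12 of them and in gastrocnemius at 0 (Fisher's exact test; 6.25% and 2.77% of all promoters), and 9 had no H3K4me3 peak in any library, as did 33.1% of all promoters. Mir9-2, whose miR-9 sequences are shown above and are abundant in neural cells, had an H3K27me3 level between 7.04 and 15.6 RPM in gastrocnemius (median 11.2). Its H3K4me3 ranged from 35.3 to 40.1 RPM in cortex and from 3.44 to 6.30 RPM in gastrocnemius (edgeR, adjusted p = 1.66e-14). Its H3K27ac ranged from 14.9 to 19.9 RPM in cortex, with no peak in gastrocnemius (Fisher's exact test, adjusted p = 0.000252), so neither H3K4me3 nor H3K27ac overlapped between the tissues. The hairpins of miR-153, miR-138 (Mir138-1) and miR-346, all of them found in brain, had no H3K4me3 peak and had H3K27ac in 9 of 9 cortexes and 0 of 10 gastrocnemius, with medians of 5.63, 2.06 and 6.45 RPM in cortex. Mir7b had both active marks in 9 of 9 cortexes and 0 of 10 gastrocnemius, with an H3K27me3 median of only 0.0770 RPM, since the peaks reached little of its window. Mir142, a gene of blood cells, had H3K4me3 in 9 of 9 cortexes and 4 of 10 gastrocnemius libraries and H3K27ac in 6 and 0, while of the leukocyte markers Ptprc had H3K4me3 in 7 of 9 and 0 of 10 and Cd68 in 9 of 9 and 9 of 10. The part of leukocytes in the values of Mir142 was not tested. Mir132 and Mir212, with the shared seed, had both active marks in all 19 libraries and H3K27me3 in 8 of 10 gastrocnemius.

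Of the 53 histone genes on chromosome 13, looked at after their values had been seen, 16 were among the 824 promoters (30.2%, against 3.30% of all autosomal genes). H3K4me3 was called in every gastrocnemius library at all 16 and H3K27ac at 13. In at least 8 gastrocnemius libraries, these marks were called at 58.1% and 59.8% of all promoters and at 74.6% and 56.7% of the 824. H3K27ac reads were higher in cortex at 14 and H3K4me3 reads at 7 of the 16, and neither mark was higher in gastrocnemius at any (edgeR, FDR below 0.1). Of all promoters tested, 31.2% and 31.9% were higher in cortex and 24.4% and 26.9% in gastrocnemius. Of the 824, 85.8% and 81.6% of those tested were higher in cortex. At the 16 histone genes, the median H3K27me3 level in gastrocnemius was 7.15 RPM. Histone genes are near-identical copies, and a mapping quality of at least 1 does not settle which copy a read came from, so that values of single copies are uncertain.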

How the data were processed

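H3K4me3, H3K27ac and H3K27me3 were measured by ChIP-seq in 9 cortexes and 10 gastrocnemius muscles of PSAPP mice aged 13 months. The authors mapped paired-end reads with bwa (mm10). SAMtools served to drop duplicates, poorly mapped reads and chromosomes other than the autosomes and X, and epic2 called peaks in each library on its own (windows of 200 bp, gaps of 2 windows, or 3 for H3K27me3, FDR 0.05). The deposited count of a peak is the whole number of reads that epic2 counted in it, not normalised, and the deposited score is epic2's measure of enrichment, used here only to rank peaks. Only peaks above the caller's threshold are listed, and no input library was used here. Sex is not in the labels of the samples and was not used.

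Genes were the curated RefSeq set of mm10 with the most upstream TSS of each gene, and a peak's reads were shared over the 2001 bp window by overlap. Calls were compared with Fisher's exact test (two-sided) and rounded reads with edgeR's quasi-likelihood test (TMM factors, library size equal to reads in autosomal peaks, mean of at least 10 reads), each adjusted by Benjamini-Hochberg over all promoters tested at an FDR of 0.1. H3K27me3 was not tested, since it chose the promoters. Both tests were first tested on simulated data. Members and gene lists were chosen with earlier results of these data known. Named are, from each list, all members where there are at most 4, otherwise the 4 with the highest median H3K27me3 RPM, then the promoters with the largest fitted differences (8 and 5 each way for H3K4me3 and H3K27ac, read levels without overlap), the 5 longest H3K27me3 peaks, the 5 highest H3K27me3 levels with H3K4me3 in every gastrocnemius library, and members of any group of 5 or fewer counted. Exceptions are marked in the text, and some genes under this rule are not reported here.

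The labels say nothing of separate animals, but the deposited names tie the cortexes to 9 of the 10 animals with gastrocnemius. Deviations of paired libraries from their tissue means correlated with a median r of 0.00865 for H3K4me3 and 0.0108 for H3K27ac, so animals were left out of the main model and used as a block in an alternative. P-values measure the spread between these libraries. The depth of a promoter's value is its reads in peaks. Software was Python 3.11.15 (NumPy 2.4.6, pandas 2.3.3, SciPy 1.17.1, matplotlib 3.10.9) and R 4.3.3 (edgeR 4.0.16, limma 3.58.1, DESeq2 1.42.0). Alternatives were other windows, peak filters, scalings, tests and thresholds, libraries with or without an S number, replicate blocks and each library left out in turn.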

Additional observations from a re-analysis of the deposited data

Results flagged for a closer look

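In 120 groups of values checked, 10 had a highest or lowest library that stood apart by Dixon's test, and chance flags about 1 group in 20. For H3K27ac in cortex, replicate 9 had peaks at 89.3% of the 824 promoters, against 92.7% in the next library, and it was the library with the fewest reads in peaks, 3.94 M. The same library held the highest H3K27ac at Unc13a in cortex, 12.7 RPM. Gastrocnemius replicate 6 was the lowest for H3K27ac at Grik4 (2.44 RPM) and the highest for H3K4me3 at Ptch1 (52.1 RPM), and gastrocnemius replicate 7 was the highest for H3K27ac at Ptch1 (14.4 RPM). Gastrocnemius replicate 9 was the highest for H3K4me3 at Kcna3 (13.6 RPM) and at Cacnb4 (19.6 RPM). Cortex replicate 2 was the highest for H3K4me3 at Unc13a (54.5 RPM). Gastrocnemius replicate 1 was the highest for H3K4me3 at Mir9-2 (6.30 RPM), and gastrocnemius replicate 5 the lowest at Snap91 (4.28 RPM).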

How the results depend on the processing

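Under the alternatives other than the libraries with an S number taken alone, which were added after the data had been seen, H3K4me3 reads were higher in cortex at 573 to 660 of the promoters and H3K27ac reads at 635 to 724. At these lowest and highest counts, 29.5% and 62.2% of all promoters tested were called toward cortex for H3K4me3 and 27.4% and 53.3% for H3K27ac. With the libraries with an S number alone, 2 of cortex and 4 of gastrocnemius per mark, the H3K27ac count higher in cortex fell from 665 to 362 and the H3K4me3 count from 590 to 439, and the counts higher in gastrocnemius were 15 and 5. limma on log2(RPM + 1) or log2(RPM + 5), with no TMM factors, also gave 15 and 5 for both pseudocounts. Taking equally many top-scoring peaks in each library raised the H3K4me3 calls toward cortex from 73 to 116, and the share of all promoters called under that setting was not counted. The median H3K27ac difference of the chosen promoters tested, 1.23, was 0.75 (0.55 above that of all promoters) with limma on log2(RPM + 5) and 1.70 with a window of 2.5 kb. The few calls toward gastrocnemius moved most. For H3K4me3, 1 of the 2 was left with equally many top-scoring peaks, with peaks covering at least 50% of the window and at an FDR of 0.05, whereas 3 were called with a window of 2.5 kb or without the 25% of peaks with the lowest scores. The H3K27ac call, at Tigd4, was lost (0) with a window of 2.5 kb, without the 25% of peaks with the lowest scores, with equally many top-scoring peaks, with at least 50% covered and without the libraries with an S number, and the cause was not tested. Leaving out each library in turn gave 1 to 2 and 0 to 1 such calls, and 63 to 73 and 218 to 255 calls toward cortex. A replicate block by number gave 586 and 33 (H3K4me3, cortex and gastrocnemius) and 654 and 22 (H3K27ac), and a block by animal 587 and 33, and 658 and 20, so the block changed no summary call by over 1.5 times. By the rule, the number of promoters chosen was 794 to 939 under other settings and 669 to 882 with a library left out, where a gastrocnemius library left out makes the rule stricter. Ntn3's H3K4me3 difference turned to -0.0353 without the libraries with an S number, and the H3K27ac difference of Gm42064 turned to -1.01 with those alone, and neither passed the threshold. In contrast, the former passed it under 3 and the latter under 9 of 31 alternatives.
At Sema6d and Dgki, the H3K27ac peak called in gastrocnemius was that of a single library, and their calls were the same without it. Of the 44 tests on named genes, 32 kept direction and side of the threshold under every alternative. Reads outside called peaks were not analysed here, so a promoter without a peak may still carry a mark below the caller's threshold, and the depth of H3K27me3 in gastrocnemius (2.99 to 18.2 M) limits which promoters could be chosen.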
